A study of Mus musculus with 3 samples.

Results

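Phase II conjugation enzymes attach a small polar group to drugs, hormones, bile pigments and reactive intermediates, which makes them easier to excrete. UDP-glucuronosyltransferases (UGT) transfer glucuronic acid from UDP-glucuronate, glutathione S-transferases (GST) couple glutathione to electrophiles, and sulfotransferases (SULT) transfer a sulfonate group from PAPS (3′-phosphoadenosine 5′-phosphosulfate). The liver is the main organ for these reactions. UGT are proteins of the endoplasmic reticulum, most GST and SULT are soluble, and the microsomal GST (MGST) sit in membranes. The members described here were all protein-coding mouse genes whose symbol begins with Ugt1, Ugt2, Ugt3, Gsta, Gstm, Gstp, Gstt, Gstk, Gstz, Gsto, Mgst or Sult. The annotation holds 67 such genes, with 21 UGT, 22 cytosolic GST, 3 MGST and 21 SULT. Gstk1, a mitochondrial and peroxisomal enzyme, is counted with the cytosolic GST throughout.

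The data were 3 liver RNA sequencing libraries of 1 group, labelled wild type, healthy, male and C57BL/6, an inbred laboratory strain. They are called replicates 1, 2 and 3. Their series concerns driver genes in hepatocellular carcinoma, and tumours were not analysed here. Age and treatment are not given in the labels, nor whether the libraries came from separate animals, so the spread between them may be technical. Each library came as a table of transcript events, such as a gene's first or last exon, an exon that can be skipped or an intron that can be kept. Each event has a level in FPKM, which counts sequenced fragments per kilobase and corrects for library size. There was no second group, so values are described and no test was made.

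Events were tied to members by their gene identifier and by their position on GRCm38. By identifier, 41 of the 67 genes were named, on 209 of 93242 distinct events of the series, with 180, 185 and 183 events in replicates 1, 2 and 3. By position, 52 of the 67 genes had a value, among 13116 genes with a value in all. The 11 genes found by position alone were Gsta1, Gstm6, Gstp1 and 8 first exons of the Ugt1 locus (Ugt1a2, Ugt1a5, Ugt1a6a, Ugt1a6b, Ugt1a7c, Ugt1a8, Ugt1a9 and Ugt1a10). Several identifiers stood on a neighbour's exons. The exons of Gstm1 carried the identifier of the noncoding gene Gm12498, so that Gstm1 by identifier alone had 1.34, 0 and 1.49 FPKM from events of the opposite strand. The exons of Gstp1 carried that of Gstp2, and those of Gstm6 that of Gstm3. Positions were therefore used first, and an identifier placed a first or last exon only where no annotated position matched and the gene lay on the same strand.

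The data went against the sex label. Xist, the noncoding RNA of the inactive X chromosome in females, had 39.6, 34.2 and 38.2 FPKM in the 3 libraries labelled male, and the Y-linked Ddx3y, Uty, Kdm5d and Eif2s3y were not listed in any. Of the hepatocyte markers, 6 of 6 were at 1 FPKM or more, led by Alb at 25367, 30592 and 27018 FPKM. Among the other cell types of liver, 6 of 6 Kupffer cell markers, 5 of 5 sinusoidal endothelium markers and 4 of 5 stellate cell markers were at 1 FPKM or more, and 2 of 5 cholangiocyte markers were. The summed cholangiocyte list was 79.2, 33.9 and 37.7 FPKM in replicates 1, 2 and 3, nearly all of it Spp1. Of markers of other organs, 0 of 3 for kidney tubule, 1 of 4 for acinar pancreas (Cela1 at 8.37, 9.27 and 7.32 FPKM) and 2 of 3 for intestine were listed, with Fabp2 at 57.4, 41.5 and 37.1 FPKM and Vil1 at 0.360 FPKM in replicate 1 alone. An event at 0 is left out of the tables, and a gene can also be absent because its transcript was not assembled, so a gene not listed is not shown to be silent. The tables hold no read counts, and the depth of each library is unknown.

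Of the 52 members with a value, 45 averaged 1 FPKM or more, against 76.7% of all protein-coding genes with a value. These 45 were 13 UGT, 19 cytosolic GST, 2 MGST and 11 SULT. A further 7 were under 1 FPKM (Gstp2, Sult1e1, Sult4a1, Ugt1a7c, Ugt1a8, Ugt1a10 and Ugt2b37). The 15 genes with no listed event were Gsto2, Gstt4, Mgst2, Sult1c1, Sult2a4, Sult2a5, Sult2a6, Sult2b1, Sult5a1, Sult6b1, Sult6b2, Ugt2a1, Ugt2a2, Ugt2b35 and Ugt2b38. Together the members made up 2.03%, 1.87% and 1.97% of the FPKM summed over all genes in replicates 1, 2 and 3. Their 5 highest genes, Mgst1, Gstm1, Gsta3, Sult2a2 and Ugt1a1, summed to 4150 FPKM in replicate 1, 3346 in replicate 2 and 3612 in replicate 3.

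Promoter sequences of the members that carry the results are shown first, because several close copies differ in level while the bases before their starts are alike in part. The windows are the 150 bases before the RefSeq start, on GRCm38.p6 and in the direction of the gene. Of the 67 genes, 59 had a window in the RefSeq table. Capitals mark matches on either strand to 5 short motifs searched in the 250 bases before the start: TGACNNNGC, the core of the antioxidant response element bound by NRF2, GTTAAT, part of the site of the liver factor HNF1, AGGTCA, the repeated unit of nuclear receptor sites, GCGTG, the core of the aryl hydrocarbon receptor site, and TATAAA, the TATA box. Overlapping matches were kept. A match is a run of letters and not a shown binding site.

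The first set is from the Ugt1 locus, where each window stands before a first exon that is joined to the same downstream exons.
Ugt1a1, chr1:88211809-88211958, plus strand: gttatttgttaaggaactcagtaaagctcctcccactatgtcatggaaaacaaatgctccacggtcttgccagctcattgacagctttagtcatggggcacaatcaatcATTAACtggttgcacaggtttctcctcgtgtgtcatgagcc
Ugt1a9, chr1:88070629-88070778, plus strand: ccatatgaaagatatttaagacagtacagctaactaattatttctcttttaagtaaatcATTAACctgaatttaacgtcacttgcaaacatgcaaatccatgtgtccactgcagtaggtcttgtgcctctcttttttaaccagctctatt
Ugt1a10, chr1:88055261-88055410, plus strand: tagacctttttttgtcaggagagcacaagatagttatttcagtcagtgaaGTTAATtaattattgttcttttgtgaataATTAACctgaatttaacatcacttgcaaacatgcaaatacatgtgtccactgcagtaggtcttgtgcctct
Ugt1a5, chr1:88165862-88166011, plus strand: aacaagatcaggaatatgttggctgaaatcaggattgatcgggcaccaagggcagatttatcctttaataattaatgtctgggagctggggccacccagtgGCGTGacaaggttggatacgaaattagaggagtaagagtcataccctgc
The HNF1 letters GTTAAT lay 41 to 36 bases before the start of Ugt1a1 and 91 to 86 before that of Ugt1a9, on the opposite strand in both. Ugt1a10 held 2 matches. The windows of Ugt1a9 and Ugt1a10 share a run of 32 identical bases, with 49.6% of bases equal in the best alignment without gaps, while their first exons were at 59.8 ± 5.60 FPKM (SD, n = 3) and at 0, 2.87 and 0.000913 FPKM.

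The second set is from the Ugt2b genes on chromosome 5, where the windows of 3 copies share long runs.
Ugt2b5, chr5:87140341-87140490, minus strand: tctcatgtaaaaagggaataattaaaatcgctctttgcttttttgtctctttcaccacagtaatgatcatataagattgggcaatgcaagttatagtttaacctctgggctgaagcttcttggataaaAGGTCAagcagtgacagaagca
Ugt2b37, chr5:87254789-87254938, minus strand: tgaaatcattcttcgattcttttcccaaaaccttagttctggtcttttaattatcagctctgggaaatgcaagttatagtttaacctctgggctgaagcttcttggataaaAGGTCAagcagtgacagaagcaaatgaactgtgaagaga
Ugt2b38, chr5:87424204-87424353, minus strand: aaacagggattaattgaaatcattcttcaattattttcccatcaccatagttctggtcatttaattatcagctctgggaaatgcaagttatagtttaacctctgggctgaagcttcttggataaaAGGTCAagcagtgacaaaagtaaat
Ugt2b5 and Ugt2b37 share a run of 68 bases, with 57.0% of bases equal in the best alignment without gaps. Ugt2b37 and Ugt2b38 share a run of 82, with 94.1% equal. Each of the 3 holds the same nuclear receptor unit AGGTCA. Ugt2b5 had 246, 341 and 283 FPKM, Ugt2b37 was listed in replicate 2 alone, at 2.78 FPKM, and Ugt2b38 was not listed. The transcripts are alike as well: 41.7% of the 50-base windows of Ugt2b5 transcripts occur in other members, so reads of these copies could be divided between them in more than 1 way.

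The third set holds GST genes: the highest cytosolic one, a pair of adjacent pi class copies, and 2 members with an antioxidant response element core, 1 of the alpha and 1 of the mu class.
Gstm1, chr3:108017974-108018123, minus strand: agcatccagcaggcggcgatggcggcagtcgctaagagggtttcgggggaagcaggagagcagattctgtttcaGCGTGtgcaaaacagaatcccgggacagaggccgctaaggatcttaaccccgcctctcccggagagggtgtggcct
Gstp1, chr19:4037913-4038062, minus strand: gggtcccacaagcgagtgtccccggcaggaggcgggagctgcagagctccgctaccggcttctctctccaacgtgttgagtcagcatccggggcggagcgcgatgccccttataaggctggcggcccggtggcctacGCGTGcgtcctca
Gstp2, chr19:4042222-4042371, minus strand: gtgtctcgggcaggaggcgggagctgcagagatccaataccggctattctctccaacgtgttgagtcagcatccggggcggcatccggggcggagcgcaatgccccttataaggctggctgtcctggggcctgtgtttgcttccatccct
Gsta3, chr1:21240435-21240584, plus strand: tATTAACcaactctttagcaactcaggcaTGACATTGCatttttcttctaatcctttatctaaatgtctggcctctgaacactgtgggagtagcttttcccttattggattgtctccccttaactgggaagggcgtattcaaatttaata
Gstm5, chr3:107895704-107895853, plus strand: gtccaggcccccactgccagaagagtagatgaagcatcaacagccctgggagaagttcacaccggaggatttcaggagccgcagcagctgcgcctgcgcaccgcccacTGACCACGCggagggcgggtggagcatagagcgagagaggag
Gstp1 and Gstp2 share a run of 43 bases, with 53.6% of bases equal in the best alignment without gaps. Gstp1 had 101, 46.3 and 74.2 FPKM, and Gstp2 was listed in replicate 3 alone at 0.187 FPKM. Their transcripts are alike in part, with 33.7% of the 50-base windows of Gstp1 found in Gstp2, so the split between them is uncertain.

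Counted over genes, GTTAAT was present before the start of 14 of the 59 Phase II genes (23.7%) and of 7.49% of all 27025 genes with a window. It stood before the RefSeq start of 5 of 11 UGT genes at 1 FPKM or more (Ugt1a1, Ugt1a6a, Ugt1a9, Ugt2a3 and Ugt3a1). It was also found for 4 of 8 such SULT genes (Sult1a1, Sult1d1, Sult2a3 and Sult3a2). Of 17 such cytosolic GST genes, 1 held it (Gsta3). The RefSeq start of Ugt1a6a lay 3569 bases before its listed first exon, and that of Sult3a2 lay downstream of its listed first exon. For both genes the match was thus not directly before the start listed here. Sult2a3, Sult2a4, Sult2a5 and Sult2a6 have the same bases beside a match, as do Ugt1a9 and Ugt1a10. The matches within each of these sets are therefore not independent. The antioxidant response element core was found for 4 of the 59 genes (6.78%), Gsta3, Gstm5, Gstm7 and Mgst1, against 11.5% of all genes. For Gstm7 and Mgst1 the match lay inside the gene's highest listed first exon, and not before it. AGGTCA was held by 11 of 59 (18.6%) against 15.8%, the aryl hydrocarbon receptor core by 11 of 59 (18.6%) against 30.9%, and the TATA box by 13 of 59 (22.0%) against 14.3%. Response elements can lie outside these 250 bases.

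Among UGT transcripts, those of Ugt1a1 and Ugt2b5 had the highest levels. UGT summed to 1098, 1308 and 1359 FPKM in replicates 1, 2 and 3. Ugt1a1, the enzyme that conjugates bilirubin, had 329, 404 and 446 FPKM. Ugt2b5, a member of the family that acts on steroids and drugs, stood next. Ugt1a1 was higher than Ugt2b5 in each of the 3 libraries, although the ranges of the 2 genes over the libraries overlapped. Ugt2b34 had 114, 112 and 149.98 FPKM, Ugt2b36 had 98.2, 82.2 and 79.8, and Ugt2b1 had 44.3, 49.8 and 52.3. The Ugt2b36 level was that of its last exons, while its listed first exons summed to 0.114, 0.116 and 0.163 FPKM. Ugt3a2, of a small family that uses sugars other than glucuronic acid, had 100.1, 125.6 and 125.7 FPKM, and its neighbour Ugt3a1 had 14.2, 23.5 and 32.7. A transcript listed on the opposite strand of the Ugt3 pair was not counted. Without strand information in the library protocol, its reads and those of Ugt3a2 cannot be told apart. Ugt1a5 and Ugt1a9 are described with the Ugt1 locus, and the remaining 4 UGT at 1 FPKM or more (Ugt1a2, Ugt1a6a, Ugt1a6b and Ugt2a3) had means from 10.3 to 27.9 FPKM. The 10 Ugt2 genes lie together at chr5:86889767-87490871, and 5 of them reached 1 FPKM.

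The Ugt1 locus at chr1:88055388-88220002 is a single locus with 9 alternative first exons. Each first exon, with its own promoter, is spliced to shared exons and gives an enzyme with its own substrate-binding part. All 9 first exons were listed. Ugt1a1 took 72.0, 74.1 and 73.9% of the summed first exon level, a mean of 73.4% ± 1.15 (SD, n = 3). Ugt1a9 followed with 11.3% ± 1.18, then Ugt1a5 with 7.13% ± 0.704. The ranges of these 3 shares over the libraries did not overlap, with Ugt1a9 from 10.2 to 12.6% and Ugt1a5 from 6.53 to 7.90%. Ugt1a6b, Ugt1a2 and Ugt1a6a held 1.94 to 3.42% in the mean. Ugt1a7c and Ugt1a10 each stood under 0.53% in every library, and Ugt1a8 was listed in replicate 1 alone, at 0.00161 FPKM. The sum of first exons was 456, 545 and 603 FPKM, and the shared last exon had the same values, as both are sums over the same transcripts.

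In absolute level, Ugt1a9 had 57.4, 55.9 and 66.3 FPKM and Ugt1a5 had 31.7, 43.1 and 39.3. The order along the locus did not follow the level. Ugt1a1 lies 2.17 kb from the shared second exon and was highest, but Ugt1a2 at 13.5 kb was lower than Ugt1a5 at 48.1 kb and Ugt1a9 at 143 kb in each library.

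**Figure D1:**
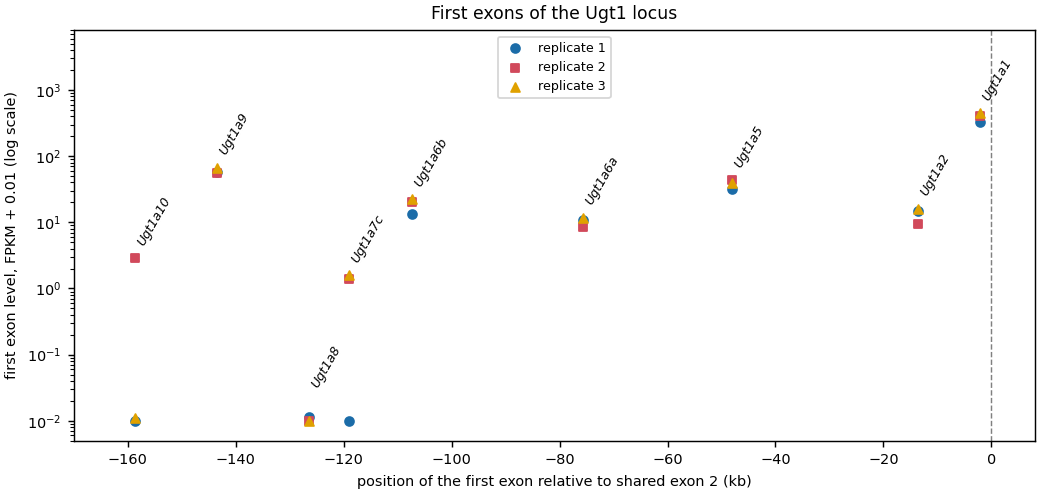
First exon level (FPKM + 0.01, log axis) of the 9 Ugt1 first exons against their position in kb from shared exon 2, with 1 point per library. Ugt1a1, nearest to the shared exons, sits between 329 and 446 FPKM, Ugt1a9 at 143 kb sits between 55.9 and 66.3 FPKM, and points at the bottom are not listed or under 0.01 FPKM.

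Among GST transcripts, Gstm1 was highest for the soluble enzymes and Mgst1 for the membrane enzymes. Cytosolic GST summed to 2931, 1904 and 2517 FPKM and MGST to 1803, 1635 and 1362 FPKM. Mgst1, a membrane transferase that also reduces lipid peroxides, had 1764, 1616 and 1336 FPKM, the highest of all members, and ranked 26 among all genes by its mean of 1572 ± 218 FPKM. It made up 98.2% of the MGST sum. Mgst3 had 39.3, 19.2 and 26.5 FPKM.

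The mu class, 7 genes at chr3:107895821-108044894, handles many xenobiotic electrophiles, and all 7 were at 1 FPKM or more. Gstm1 had 1199, 570.1 and 884 FPKM and supplied 82.4% of the class. The remaining mu genes were Gstm6 with 73.0, 28.9 and 46.7 FPKM, Gstm2 with 46.0, 33.7 and 41.2, Gstm4 with 36.2, 29.2 and 31.3, Gstm3 with 49.6, 12.1 and 28.2, Gstm7 with 22.1, 29.1 and 30.9, and Gstm5 with 12.6, 8.27 and 5.82. Replicate 2 was the lowest for Gstm1, Gstm2, Gstm3, Gstm4 and Gstm6, and not for Gstm5 or Gstm7.

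Of the alpha class, known for steroid isomerase and peroxidase activities, Gsta3 lies on chromosome 1 and the other 3 genes at chr9:78182774-78355788. Gsta3 had 486, 361 and 521 FPKM and made up 78.4% of the class. Gsta4, which conjugates the lipid aldehyde 4-hydroxynonenal, had 76.4, 47.5 and 67.8 FPKM. Gsta2 had 56.1, 27.6 and 50.9 FPKM, and Gsta1 35.4, 2.14 and 13.2. All 4 were lowest in replicate 2. Gsta1 shares 46.6% of its 50-base windows with other members, namely with Gsta2, so reads of this pair may have been divided unevenly.

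In the smaller classes, Gstz1, which isomerizes maleylacetoacetate in tyrosine breakdown, had 242, 274 and 284 FPKM. Gstt1, of the theta class that acts on small halogenated compounds, had 235, 189.7 and 179 FPKM, Gstt2 had 67.6, 54.0 and 77.2, and Gstt3 had 30.3, 29.1 and 30.7. The identifier of Gstt3 alone would have given 249, 269 and 267 FPKM, because it also stood on exons of another gene. Gstk1, the mitochondrial and peroxisomal kappa enzyme, had 88.0, 87.7 and 80.9 FPKM. Gsto1, of the omega class with thioltransferase activity, had 65.3, 65.6 and 63.9 FPKM, the smallest coefficient of variation among the members, 1.39%. Of the pi class, Gstp1 is given above, and Gstp3 had 9.52, 7.03 and 5.28 FPKM. Gstk1 and Gsto1 were thus within a narrow band across the libraries, and Gstp1 was not. Gstt3 was within such a band by its largest internal event alone, as its listed first exon had 4.32, 29.1 and 30.7 FPKM.

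Among SULT transcripts, the highest were those of Sult2a2 and Sult2a1, of the Sult2a enzymes of bile acids and hydroxysteroids. SULT summed to 930 FPKM in replicate 1, 1238 in replicate 2 and 1036 in replicate 3. Sult2a2 had 372, 394 and 426 FPKM and Sult2a1 206, 279.8 and 226. These 2 genes are alike in part: 41.3% of the 50-base windows of Sult2a2 occur in Sult2a1, and 29.5% of those of Sult2a1 occur in Sult2a2. Over all other members the shares are 62.1% for Sult2a2 and 33.2% for Sult2a1, so the split of reads is uncertain. Sult2a8 had 65.5, 162 and 73.4 FPKM, Sult2a7 had 67.7, 68.2 and 69.8, and Sult2a3 had 9.38, 5.98 and 6.20. The 8 genes of the cluster at chr7:13623967-14494230 included 3 with no listed event, Sult2a4, Sult2a5 and Sult2a6.

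Outside that cluster, Sult1a1, the phenol sulfotransferase, had 116, 128 and 125 FPKM. Sult1d1, which acts on catecholamines, had 47.9, 47.3 and 57.1 FPKM, and Sult1b1, which acts on thyroid hormones, had 9.34, 11.2 and 10.2. Sult3a1 had 28.6, 134.7 and 37.0 FPKM and its neighbour Sult3a2 had 1.09, 3.82 and 0.939. The pair lies at chr10:33766424-33879532, and both genes were higher in replicate 2 than in the other libraries. Sult1e1, the estrogen sulfotransferase, was listed in replicate 1 alone at 0.367 FPKM.

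**Figure D2:**
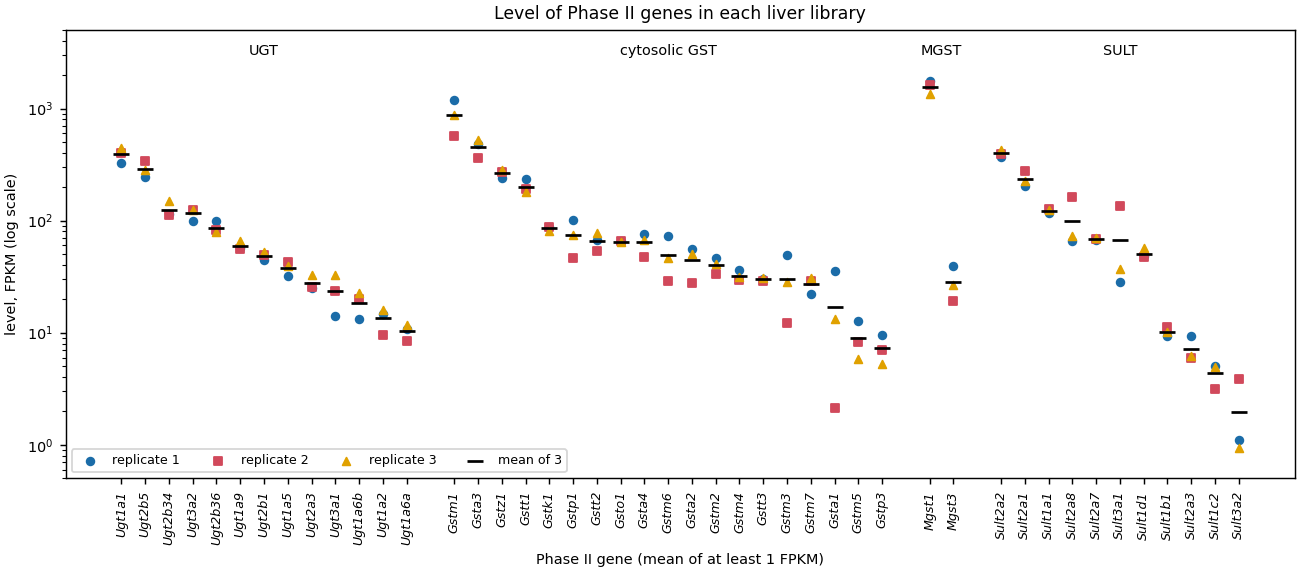
Level (FPKM, log axis) of the 45 members averaging 1 FPKM or more, grouped by family and ordered by mean, with 1 point per library and a bar at the mean of 3. Mgst1 sits highest, between 1336 and 1764 FPKM, and the 3 libraries of Gsta1 are the most spread, from 2.14 to 35.4 FPKM.

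Of 44 neighbouring pairs in the order of means, 4 had libraries that did not overlap: Mgst1 above Gstm1, Gstm1 above Gsta3, Gstt1 above Ugt2b34, and Sult2a3 above Sult1c2. The ranges of every other pair of neighbours overlapped, and for 6 of those pairs, Ugt1a1 and Ugt2b5 among them, the order was still the same within each of the 3 libraries.

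Members known from mouse liver to differ between the sexes were listed beside the Xist values given above. Of 9 members known as higher in females, Sult2a1, Sult2a2, Sult2a3, Sult3a1, Sult3a2 and Sult1e1 had a value, with the levels above. Of 4 known as higher in males, Ugt2b1 and Gstp1 had at least 44.3 FPKM in every library, Gstp2 was listed at 0.187 FPKM in replicate 3, and Ugt2b38 was not listed. The libraries therefore held transcripts of members from both lists, beside Xist and with no listed Y-linked gene. No female or male comparison group was available, so nothing is said here of the direction of a sex difference.

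Between the libraries, 9 of the 45 members (20.0%) had a highest value at least 2 times the lowest on the FPKM + 1 scale, against 10.9% of all 9604 genes averaging 1 FPKM or more. Adding 1 lowers the ratio more for genes near 1 FPKM than for high ones, and these shares are not matched for level. The GST among them were Gsta1 (11.6 times), Gstm3 (3.86), Gstm6 (2.47), Gstp1 (2.16) and Gstm1 (2.10), and all 5 were highest in replicate 1 and lowest in replicate 2. Over all genes, 3.95% varied this much with the lowest value in replicate 2. The SULT among them were Sult3a1 (4.59 times), Sult3a2 (2.49) and Sult2a8 (2.45), and all 3 were highest in replicate 2, where 3.23% of all genes varied this much with the highest value. Ugt3a1 (2.22 times) was lowest in replicate 1 and highest in replicate 3. Without replicate 2, 2 members varied 2-fold, Gsta1 and Ugt3a1. Just under the threshold stood Gstm5 (1.998 times), Gsta2 (1.995) and Mgst3 (1.991). The median coefficient of variation was 16.7% for the 45 members and 18.2% for all genes.

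Under 2-fold, the GST pattern was also seen in the cytosolic Gsta2, Gsta4, Gstm2 and Gstm4. The cytosolic GST counts and medians below include the 5 genes past 2-fold, from which the pattern was taken. They are therefore no separate support for it. Replicate 1 was highest and replicate 2 lowest for 9 of 19 cytosolic GST, 1 of 2 MGST, 2 of 11 SULT and 0 of 13 UGT, together 12 of 45 (26.7%), against 17.7% of all genes. Deviation here means log2(FPKM + 1) minus the gene's mean over the libraries. Its median over cytosolic GST was 0.23 in replicate 1, -0.24 in replicate 2 and 0.064 in replicate 3, and 15 of 19 were below their mean in replicate 2, against 47.7% of all genes. For UGT the medians were -0.13, 0.032 and 0.19, and 10 of 13 were below their mean in replicate 1, against 50.1% of all genes. For SULT they were -0.092, 0.056 and -0.0047, and the sign in replicates 2 and 3 depended on the setting, with -0.0075 in replicate 2 when no filter on low values was used and 0.022 in replicate 3 from first exons alone. Over all genes the medians were -0.00092, 0.011 and 0.0074. The alpha class was at 0.33, -0.51 and 0.22 and the mu class at 0.50, -0.24 and 0.042.

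Cell type marker lists also differed between the libraries, and not all in the same direction. The summed cholangiocyte list was highest in replicate 1, as given above, with Spp1 at 75.5, 31.5 and 35.5 FPKM, while the duct keratins Krt19 and Krt7 were under 1 FPKM in every library. The Kupffer cell list summed to 85.1, 135 and 124 FPKM and the hepatocyte list to 33396, 39768 and 36088 FPKM. Most of the hepatocyte sum was Alb, while Ttr was lowest in replicate 2, at 3513, 2808 and 3378 FPKM, and Apob, Cps1 and Fgb were highest in replicate 3. In a bulk sample, fewer cells of a type and less RNA per cell cannot be told apart. The part of these differences in the values of the members was not tested.

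**Figure D3:**
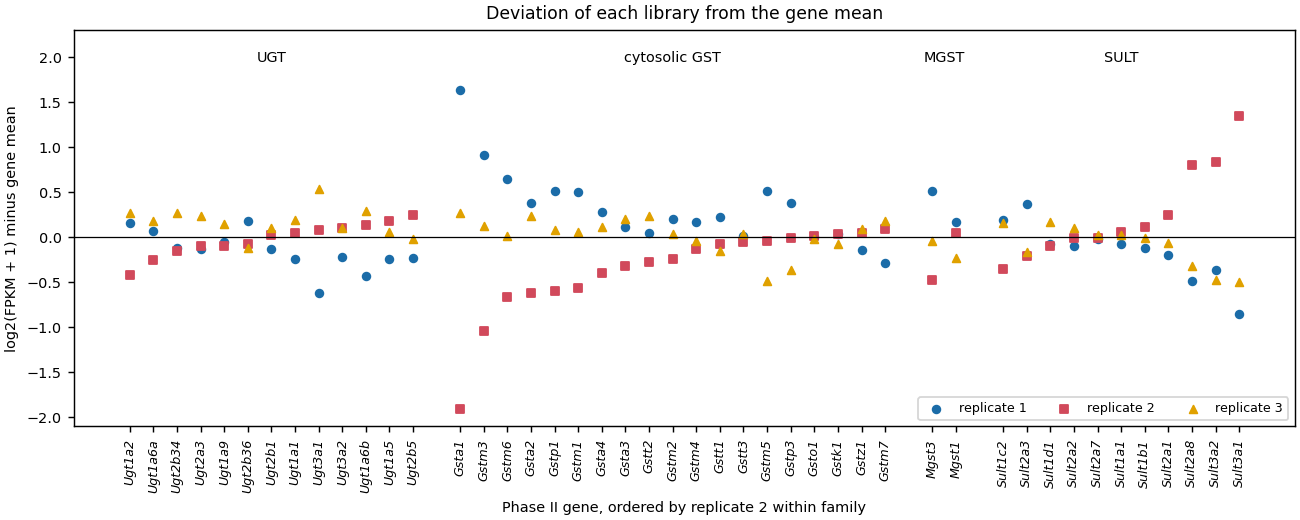
Deviation of each library from the gene's mean of log2(FPKM + 1) for the 45 members at 1 FPKM or more, ordered by replicate 2 within each family, with 1 point per library. Replicate 2 is lowest for Gsta1, Gstm3 and the other cytosolic GST at the left of that block and highest for Sult3a1, Sult3a2 and Sult2a8 at the right end.

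Use of alternative first exons was a second way in which members differed between libraries. At least 2 first exons with a mean of 1 FPKM or more were listed for 12 of the 49 members with a listed first exon, against 12.6% of all 12103 genes with one. Not all of the 12 had separate starts in every library. The first exons of Gstp3 counted here begin at the same base, and the second one of Gstm2 was listed in replicate 2 alone, at 3.53 FPKM. Mgst1 used a main first exon, chr6:138140316-138140606, at 1258, 1575 and 1171 FPKM, and another starting 1054 bases downstream at 476, 41.1 and 152 FPKM. The downstream start thus made up 27.0, 2.54 and 11.4% of Mgst1 first exons in replicates 1, 2 and 3, while the Mgst1 total varied by 1.32 times. Both starts are annotated.

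Gstz1 used 2 annotated starts 9.89 kb apart in nearly fixed proportion, with the upstream one at 28.3, 29.1 and 24.6%. Sult3a1 used an annotated start at 15.7, 49.8 and 18.01 FPKM and another, absent from the annotation and 6.73 kb upstream, at 12.5, 84.4 and 18.5 FPKM. The upstream start held 44.5, 62.9 and 50.7% of Sult3a1 first exons, and both starts were highest in replicate 2. Sult2a8 used its main start for 90.2, 97.1 and 95.4% and an upstream start 8.22 kb away for 9.14, 2.37 and 3.18%. The main start was highest in replicate 2, at 59.1, 157 and 70.01 FPKM, and the upstream start was highest in replicate 1, at 5.98, 3.83 and 2.33 FPKM. For Gstt2, 2 starts outside the annotation were listed in replicate 3 alone, with 46.1% and 13.6% of its first exon level.

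**Figure D4:**
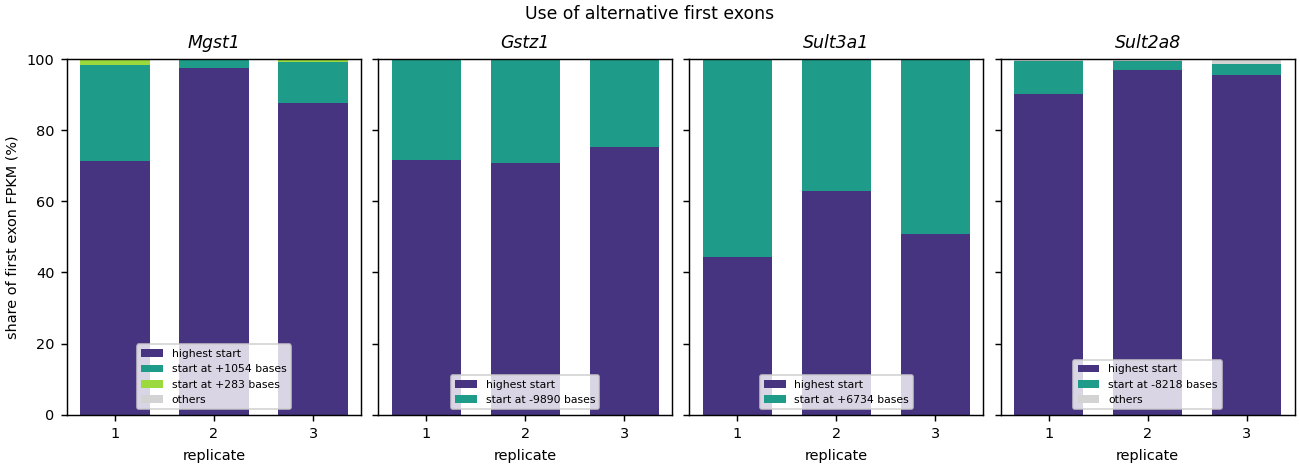
Share of the summed first exon FPKM (%) taken by each start of Mgst1, Gstz1, Sult3a1 and Sult2a8 in replicates 1, 2 and 3, with distances in bases from the start with the highest mean. The downstream Mgst1 start takes 27.0, 2.54 and 11.4%, while the upstream Gstz1 start stays between 24.6 and 29.1%.

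Of 22 cassette exons (exons that can be included or skipped) listed in members, 9 had both forms in every library with a sum of at least 1 FPKM, against 10.1% of the 12135 listed over all genes. These figures are not matched for gene level. The median of mean log2(FPKM + 1) was 5.41 for members and 2.08 for all genes with a value. The threshold was on the sum, so the rarer form could lie far under 1 FPKM. A further 7 had both forms in 1 or 2 libraries. Inclusion is the included level as a percent of included plus skipped. A noncoding exon of 111 bases of Gsta2, at chr9:78342487-78342597, was included at 53.5, 20.1 and 54.8%, so replicate 2 stood apart. Its included form had 29.9, 5.55 and 27.7 FPKM and its skipped form 26.1, 22.0 and 22.9, so most of the Gsta2 difference of replicate 2 lay in the included form. Gsta3 had 2 noncoding exons that were mostly skipped, 1 of 95 bases included at 21.6, 20.0 and 22.1% and 1 of 140 bases included at 9.54, 6.59 and 7.32%. These Gsta3 values differed little between libraries although its level did.

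An exon of 108 bases of Mgst1 was included at 2.20, 1.91 and 2.01%, and an unannotated exon of 57 bases between the starts of Sult3a1 at 17.3, 16.2 and 12.6%. A coding exon of 115 bases of Ugt3a1, whose length is not a multiple of 3, was included at 89.3, 95.5 and 92.3%. The remaining 3 exons were at or near 0 or 100%: 1 of Gstz1 (68 bases) and 2 of Sult2a8 (95 and 30 bases). For a coding exon of 99 bases of Ugt3a2, inclusion was 84.2% in replicate 1 and 88.5% in replicate 3, and the skipped form was not listed in replicate 2. Of 4 introns listed, 0 had both forms in every library. An intron of Gstt2 was retained at 34.4% in replicate 2 and 16.4% in replicate 3, with no retained form listed in replicate 1.

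**Figure D5:**
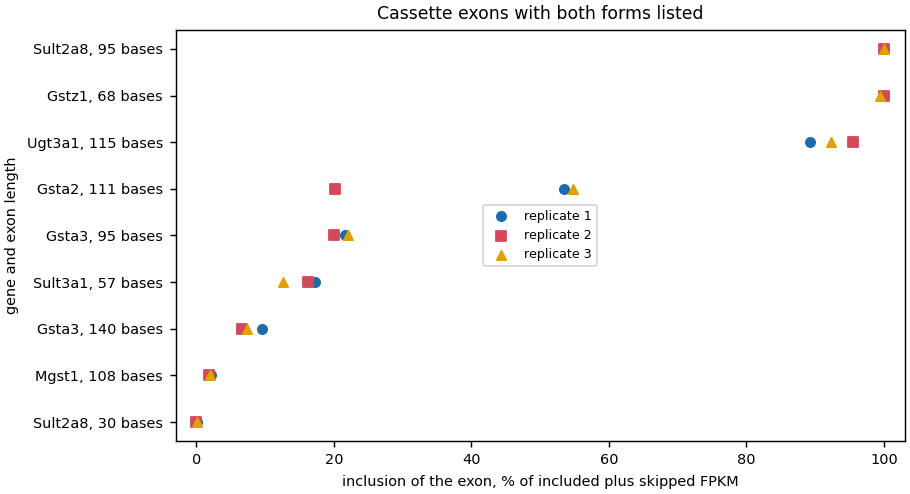
Inclusion (% of included plus skipped FPKM) of the 9 cassette exons with both forms listed in all libraries, with 1 point per library. The Gsta2 exon is at 20.1% in replicate 2 and at 53.5 and 54.8% in the others, and the 3 points of every other exon lie within 7 percentage points.

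The genes that supply and serve these enzymes were listed almost in full. The level of a list is given as the median over its genes of mean log2(FPKM + 1), and the median over all genes with a value was 2.08. All 6 genes of UDP-glucuronate supply reached 1 FPKM, and their median was 4.77. Ugp2, which makes UDP-glucose, had 117, 97.4 and 132 FPKM, Pgm1 had 72.1, 83.1 and 90.1, and Ugdh, which oxidizes UDP-glucose to UDP-glucuronate, had 35.5, 24.4 and 40.4. All 7 genes of PAPS and sulfate supply did so too, at a median of 4.10. Papss2, which makes PAPS, had 30.8, 34.0 and 61.8 FPKM, the sulfate transporter Slc26a1 had 28.6, 32.0 and 32.6, and Bpnt1, which clears the spent cofactor, had 16.9, 22.5 and 20.0.

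Of 8 genes of glutathione supply and turnover, 6 had a value, all at 1 FPKM or more, and Ggt1 and Dpep1 were not listed. Their median was 5.08. Gclc, the catalytic subunit of the rate-limiting step of glutathione synthesis, had 57.8, 59.1 and 72.5 FPKM, Lap3 had 56.1, 53.1 and 59.98, and Gss, glutathione synthetase, had 29.9, 39.5 and 34.3. The summed list was 208, 221 and 235 FPKM, so replicate 2 was not the lowest for glutathione supply as it was for the alpha and mu transferases. All 5 export pumps reached 1 FPKM. Their median was 4.001, and 4.52 without replicate 1. Abcc6 had 42.7, 34.7 and 43.2 FPKM, Abcc3, which moves glucuronides to the blood, had 24.3, 34.6 and 36.6, and Abcc2, the canalicular pump of bilirubin glucuronides, had 6.74, 19.3 and 25.1. Of 4 enzymes that cleave glucuronides or sulfate esters, Gusb (beta-glucuronidase) had 6.06, 5.95 and 4.52 FPKM and Arsb 4.77, 6.24 and 7.01. Whether they act on conjugates formed by the members was not tested. Galns was not listed and Sts was not found under that symbol in the annotation.

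All 15 regulators of Phase II genes reached 1 FPKM, and their median was 3.82. The nuclear receptor CAR (Nr1i3) had 129, 170.5 and 129 FPKM, Hnf4a had 58.7, 94.8 and 89.7, and Rxra had 50.96, 68.8 and 70.1. Conjugating enzymes outside the symbol rule (methyl, acetyl and amino acid transferases, with Ephx1 and Nqo1) numbered 14, of which 13 reached 1 FPKM. Their median was 5.69. Inmt, an amine N-methyltransferase, had 631, 263 and 524 FPKM, lowest in replicate 2 like the alpha and mu GST. Ephx1, the microsomal epoxide hydrolase, had 85.7, 196 and 204 FPKM, and Gamt, of creatine synthesis, had 178, 159.7 and 110.3. Nat1 was listed in replicate 2 alone, at 0.874 FPKM.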

How the data were processed

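The deposited tables hold FPKM values that the authors computed for each transcript event, per the file headers. Depth is unknown. The submitters' processing notes name HISAT2 2.0.1 beside cutadapt 1.9.1, DESeq2 and HTSeq 0.6.1, with no roles, and the build mm9. For the event tables, no program is named in the sources used here. Positions were read as GRCm38, since 82.0 to 82.7% of first exons matched GENCODE M21 exactly while after moving them by 1000 bases no more than 0.00564% did. Per the labels' protocols, RNA with an integrity number above 6.5 was used, and poly(A) selection or ribosomal RNA removal is left unspecified.

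Identical rows (1440 to 1519 per library) were removed. First and last exons were placed on genes by exact position, then splice site, then an identifier on the same strand. Ends that fit several coding genes were placed on none. A gene's value is the largest of its first exon sum, last exon sum and largest internal event. Ratios and deviations used FPKM + 1. Members named with values were the up to 8 highest of each family group, those that varied 2-fold and the listed sex-biased ones. Members, lists and motifs were chosen with earlier results of these data known. Alternatives were other gene values, identifiers alone, a pseudocount of 0.1, no filter, scaling and leaving out each library. Python 3.11.15, pandas 2.3.3 and numpy 2.4.6 were used.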

Additional observations from a re-analysis of the deposited data

How the results depend on the processing

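Each value was recomputed under the alternatives above. Of these, 175 stayed within the spread between libraries (or within 1.5 times for counts) and 9 did not. Many of the 175 could not have come out otherwise. Leaving out a library cannot move a mean over 3 libraries past their SD, which covers family sums, Ugt1 shares and exon inclusion. Ugt1 shares from exactly placed first exons could not change either, since all Ugt1 first exons were placed exactly. The count of 175 is therefore no measure of robustness. From last exons alone the UGT sum was 699.6 FPKM instead of 1255, since the shared Ugt1 last exon was placed on none. From first exons alone the SULT sum was 668 FPKM instead of 1068, with no first exon listed for Sult2a2. By identifiers alone the cytosolic GST sum was 1759 FPKM instead of 2450.5, without Gstm1. List medians from last exons alone were 3.47 for PAPS and sulfate supply, 3.22 for the regulators and 3.76 for the other conjugating enzymes. The export pumps had 4.45 from first exons alone, and 3.85 to 4.52 when each replicate was left out.

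The number of members that varied 2-fold was 2 to 10 when each replicate was left out, 9 from first exons alone, 8 from last exons alone, 6 by identifiers alone, 11 after scaling, and 12 with a pseudocount of 0.1 or with no filter. After scaling, with a pseudocount of 0.1 and with no filter, all 9 members remained among them. Sult3a2 was lost from first exons alone, Gstm6, Gstp1 and Ugt3a1 from last exons alone, and Gsta1, Gstm1, Gstm6 and Gstp1 by identifiers alone. Gained were Gstt3 from first exons alone, Gstm5 and Gstp3 from last exons alone, and Gstp2 by identifiers alone. Gstm1, Gstm6, Gstp1 and Ugt3a1 were lost without replicate 1, all but Gsta1 and Ugt3a1 without replicate 2, and Ugt3a1 without replicate 3. The median deviation of cytosolic GST kept its sign in each library under all alternatives run for it, from -0.25 to -0.10 in replicate 2. That of SULT did not, with -0.0075 in replicate 2 with no filter and 0.022 in replicate 3 from first exons alone. No paired analysis was possible because there is only 1 group. No interval for counting error can be given, since the depth is unknown.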
